A study of Mus musculus with 4 samples.

Results

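The caspases and their activator Apaf1 were followed in 2 kinds of mouse granulocyte. All probe sets of an Affymetrix mouse expression array that the platform annotation assigned to 1 gene symbol were searched for Casp1, Casp2, Casp4, Casp6, Casp8, Casp9 and Apaf1. This gave 11 probe sets for 7 genes, of 34945 probe sets with 1 symbol for 18193 genes in all. Gene expression had been measured in total RNA of 2 samples of suppressor cells of the granulocytic kind (G-MDSC, sorted as CD11b+Ly6G+Ly6Clow) and 2 of neutrophils, 1 array each, all from female C57BL/6 mice. G-MDSC are myeloid-derived cells that accumulate in tumour-bearing hosts and restrain T cells. They came from the spleen 3.5 weeks after EL4 lymphoma cells had been injected under the skin, and were selected with beads for Ly6G. The neutrophils came from the peritoneal cavity of mice without a stated tumour, given 2 injections of 1.5 ml of 12% casein 16 h apart and sampled 3 h after that, and were depleted of F4/80-positive cells before selection for Ly6G. Cell kind, tissue, tumour, casein and sorting changed together in this design and cannot be told apart. Nothing in the labels ties the 2 samples of either kind to different mice. The p-values therefore rest on a spread that may be only technical.

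Caspases are cysteine proteases that cut proteins after aspartate and are made as inactive precursors. Initiator caspases are activated on scaffolds: Casp8 at death receptors, Casp2 on the PIDD complex, and Casp9 on the apoptosome, the wheel that Apaf1 forms once cytochrome c leaves mitochondria. Executioner caspases such as Casp6 are then cut and dismantle the cell, while the inflammatory caspases Casp1 and Casp4 process gasdermin D and, in the case of Casp1, the precursors of IL-1β and IL-18. Neutrophils are short-lived cells that end mainly by apoptosis, and inflammation can prolong their life.

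The values are the authors' deposited signals on a linear scale. One array stood apart: neutrophils replicate 2 had a median signal of 177.6 and a 40th percentile of 132.7, against medians of 75.8 to 83.3 and 40th percentiles of 45.7 to 52.6 in the other 3 arrays. Differences without that array are therefore given for every member. A probe set was tested when 2 or more of the 4 arrays had a signal above their own 40th percentile. Differences are G-MDSC minus neutrophils on the scale log2(signal + 16), which understates changes of dim genes, and the test is limma's moderated test with Benjamini-Hochberg adjustment over all 28754 tested probe sets, at a threshold of 0.05. The median probe set differed by -0.20 on this scale, and by 0.038 after median scaling and 0.066 after quantile normalization of the arrays. In bulk samples, fewer cells of a type and less RNA per cell cannot be told apart.

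The granulocyte gene S100a8 was bright in all 4 arrays, at 53178 and 61944 for G-MDSC and at 58668 and 85891 for neutrophils. Probe sets for Ly6g, the selection marker, carry several symbols and were not used here. Of all genes, each by its brightest probe set, 10.7% were called, 5.17% as higher and 5.55% as lower. Markers of other cells were counted in the same way (limma, summed signals in brackets). The counts cover tested genes, and the sums cover every gene of the list with a probe set, tested or not. The sums thus cover 11 genes of mast cells and basophils, 13 of T and NK cells, 6 erythroid genes and 11 mesothelial and stromal genes. Macrophage markers were lower for 11 of 18 tested genes (G-MDSC 47844 and 50784, neutrophils 75600.5 and 119194), with the scavenger receptor Msr1 at -5.89. These sums include 2 bright genes that were not called (limma adjusted p = 0.634 and 0.278). They were Lyz2 (27651.5 and 30802, then 27832 and 47236) and Csf1r (11012 and 11272, then 16081 and 17388). Monocyte and dendritic cell markers were lower for 9 of 14 (28450 and 29983, then 78723 and 102142), with Ms4a6c at -3.12. Among 10 genes of mast cells and basophils, 5 were lower and 1, Mcpt8, higher (20051 and 22609, then 41256 and 30964). Of these, Cma1, Mcpt4, Tpsb2 and Mcpt8 passed the filter only through the group where they are high. Their calls were in part fixed by the filter. The mast cell proteases Cma1, Mcpt4, Tpsb2 and Tpsab1 lay at or below the 40th percentile in both G-MDSC arrays, and Cma1 was at least 41.3-fold lower there, or at least 18.1-fold with the highest of the 4 percentiles as a common floor. Platelet genes were lower for 2 of 7 (1081 and 1238, then 6373 and 19358), with Pf4 at -6.31, and T and NK cell genes for 1 of 12 (1984 and 1251, then 2260 and 2151). The called T and NK cell gene was Cd2, at -1.75. The largest difference of that list went the other way, Nkg7 at 1.83, and was not called (limma adjusted p = 0.105). Granulocyte genes were higher for 6 of 15 (369613 and 426405, then 260732 and 312436), with myeloperoxidase, Mpo, at 5.12, and B and plasma cell genes for 2 of 11 (49186 and 37565, then 21344 and 19537), with Jchain at 4.49. At an unadjusted p under 0.05 (limma), 4 B and plasma cell genes were higher and 1 was lower. The lower one was the plasma cell marker Sdc1, at -2.30, which was not called (limma adjusted p = 0.0529). Limma called 0 of 5 erythroid genes (2020 and 1954, then 1774 and 2401) and 0 of 5 mesothelial and stromal genes (335.4 and 351.7, then 444.4 and 1466), with 0 and 1 at an unadjusted p under 0.05. The part of these other cells in the caspase values was not tested.

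Casp6 was higher and Casp8 was lower in G-MDSC, and no other member probe set passed the test. Of the 10 tested probe sets 1 was higher and 1 lower, where 8.03% of all tested probe sets were called, 3.72% as higher and 4.31% as lower. The arrays of the groups did not overlap for 6 of the 10, and for 54.6% of all tested probe sets. For 9 of the 10 all 4 arrays lay above the 40th percentile. The exception, 1458715_at (Casp6), is among the 6 and passed through the G-MDSC arrays only. Its difference and its lack of overlap were thus in part fixed by the filter. The remaining probe set, 1457816_at (Casp9), was dim in all 4 arrays and was not tested. With 1 probe set per gene fitted (the brightest), Casp2 and Casp9 passed as well, giving 4 of 7 genes where 16.4% of all genes were called. Without neutrophils replicate 2, 4 of the 10 probe sets were called, where 9.73% of all were. The count was 5 without neutrophils replicate 1, where 27.5% of all were called, and 1 without G-MDSC replicate 1, where 4.43% were. The 4 and the 5 include 1458715_at. The count was 0 without G-MDSC replicate 2 (limma), where 4.83% of all were called and 3940 had an unadjusted p under 0.05. Without moderation of the variance across probe sets, limma called 0 of them and 0 of all 28754, with 4212 of all at an unadjusted p under 0.05.

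**Figure D1:**
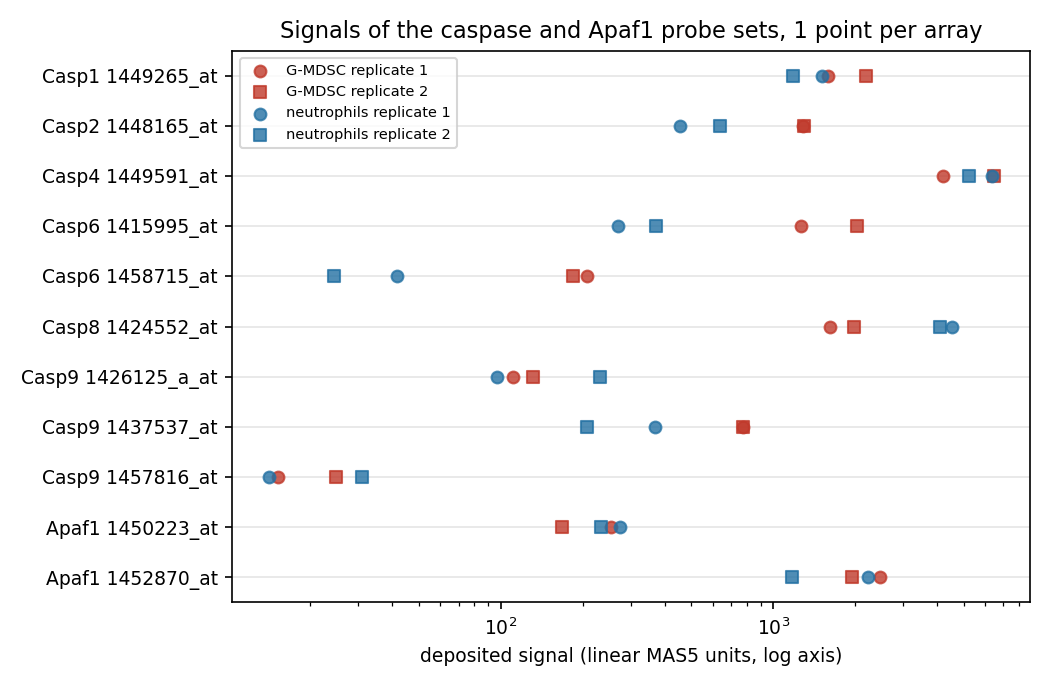
Deposited signal of each of the 11 probe sets (log axis, linear MAS5 units), 1 point per array, with G-MDSC in red and neutrophils in blue. Both Casp6 probe sets and Casp2 have their G-MDSC points to the right of the neutrophil points, and Casp8 has them to the left.

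Casp2, Casp6 and Casp9 had the largest positive differences on their brightest probe sets, and Casp8 was the member called lower. Of these, Casp2 and Casp9 missed the threshold over all probe sets in the fit as reported. The promoters of these genes, chosen by those differences, are shown. Each runs from 250 bases before to 50 after the start that the RefSeq promoter table uses (GRCm38.p6), 5′ to 3′ on the strand of the gene, and capitals mark matches to the GC box bound by SP1, GGGCGG, on either strand.
Casp6 (chr3:129901165-129901464, plus strand): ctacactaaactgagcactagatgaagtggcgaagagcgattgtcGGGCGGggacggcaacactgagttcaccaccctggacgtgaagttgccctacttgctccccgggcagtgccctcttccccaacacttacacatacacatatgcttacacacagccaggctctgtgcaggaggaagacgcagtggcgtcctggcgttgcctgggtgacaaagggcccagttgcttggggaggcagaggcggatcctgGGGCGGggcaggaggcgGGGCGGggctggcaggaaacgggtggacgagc
Casp2 (chr6:42264735-42265034, plus strand): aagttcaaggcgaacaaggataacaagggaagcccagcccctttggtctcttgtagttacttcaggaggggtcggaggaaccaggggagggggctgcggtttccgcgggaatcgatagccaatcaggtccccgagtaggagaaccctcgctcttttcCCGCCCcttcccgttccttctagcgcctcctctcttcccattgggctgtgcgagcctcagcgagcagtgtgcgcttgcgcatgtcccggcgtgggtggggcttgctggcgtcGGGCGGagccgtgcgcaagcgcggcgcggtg
Casp9 (chr4:141793362-141793661, plus strand): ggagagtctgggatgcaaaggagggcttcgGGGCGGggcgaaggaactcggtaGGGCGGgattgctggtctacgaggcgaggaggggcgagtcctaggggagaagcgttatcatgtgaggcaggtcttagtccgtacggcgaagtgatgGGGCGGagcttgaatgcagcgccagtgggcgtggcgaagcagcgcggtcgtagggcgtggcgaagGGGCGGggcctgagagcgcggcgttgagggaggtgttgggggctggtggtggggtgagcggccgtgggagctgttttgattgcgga
Casp8 (chr1:58802252-58802551, plus strand): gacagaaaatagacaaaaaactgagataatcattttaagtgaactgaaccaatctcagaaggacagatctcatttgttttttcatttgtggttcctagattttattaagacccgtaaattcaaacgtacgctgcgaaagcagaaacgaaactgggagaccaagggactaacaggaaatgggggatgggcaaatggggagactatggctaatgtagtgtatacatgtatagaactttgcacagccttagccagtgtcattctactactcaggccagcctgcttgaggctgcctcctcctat
The start used for Casp8 lies 7269 bases downstream of the annotated beginning of the gene, so its window is an internal start, and that of Casp2 lies 83 bases downstream. The share of G and C was 62% for Casp6, 63.7% for Casp2, 66% for Casp9 and 42% for Casp8, against a median of 52.7% over all 32851 promoters. The table held 8 promoters for the 7 genes, of which Casp4 has 2 that overlap. The GC box was found 3 times in Casp6, 2 times in Casp2, 4 times in Casp9 and 3 times in Apaf1, and 35.7% of all promoters held it. It was not found in the windows of Casp8, Casp1 or Casp4. Casp4, which was not called, had 42% and 41.7% G and C, close to Casp8, and Casp1 had 48%. The promoter of Apaf1, whose difference did not pass the test, had 74.7% G and C, the highest of the 8. Both strands were also searched for ETS (CCGGAAG, in 8.86% of all promoters), E2F (TTTGGCGC, 0.514%, and TTTCGCGC, 0.323%), NF-kappaB (GGGACTTTC, 0.353%), C/EBP (TTGCNNAA, 10.8%), STAT (TTCNNNGAA, 8.3%), NRF1 (CGCATGCGC, 1.75%), the TATA box (TATAAA, 13.6%) and the p53 half-site (8.36%), and of these only NRF1 was found, 1 time, in Apaf1. The NF-kappaB and NRF1 letters were each shortened by 1 base after the longer forms had been searched, and the longer NRF1 form had matched none of the 8 windows.

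Casp6, the executioner that cuts nuclear lamin A, showed the largest difference of the members. On 1415995_at its signal was 1262 and 2029 for G-MDSC and 270.4 and 371.8 for neutrophils. The lower G-MDSC array was above the higher neutrophil array by more than either pair of replicates differed. Casp6 was 4.85-fold higher in G-MDSC, a log2 difference of 2.28 ± 0.38 (SE, n = 2 per group; limma adjusted p = 0.00963), and 2.50 without neutrophils replicate 2 (adjusted p = 0.00455). Without G-MDSC replicate 2 it was 1.94 and missed the threshold (adjusted p = 0.0584), as it did without the intensity trend (0.087) and without moderation (0.309). On the second probe set, 1458715_at, the signal was 208.1 and 184.6 for G-MDSC and 41.4 and 24.4 for neutrophils, both below the 40th percentile of their arrays. Against those percentiles G-MDSC had at least 2.12-fold more signal, or at least 1.43-fold with the highest of the 4 percentiles as a common floor. Since it was tested only through the group where it is high, no fitted value of this probe set is given as support.

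Of the initiators, only Casp8 passed the test over all probe sets with all 4 arrays in the fit as reported, by group alone. With the replicate number added to the fit as a block, Casp2 and Casp9 1437537_at passed as well (limma adjusted p = 0.00489 and 0.00338). In that fit 19.3% of all tested probe sets were called, against 8.03% in the fit as reported. The labels do not say that a number pairs arrays. Casp8, the initiator at death receptors, had signals of 1624 and 1984 for G-MDSC and 4531 and 4097 for neutrophils. Both G-MDSC arrays were below both neutrophil arrays. Casp8 was 2.39-fold lower in G-MDSC, a log2 difference of -1.26 ± 0.30 (SE, n = 2 per group; limma adjusted p = 0.0381), and -1.33 without neutrophils replicate 2 (adjusted p = 0.0318). The sign was kept under all 15 alternatives, from -1.40 to -1.02, but the call was lost without G-MDSC replicate 1 (-1.11, adjusted p = 0.315), without G-MDSC replicate 2 (-1.40, 0.136), with median scaling (-1.02, 0.192), without the intensity trend (0.167) and without moderation (0.276).

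Casp2, the initiator activated on the PIDD complex, had signals of 1286 and 1299 in G-MDSC, which lay close together, and 456 and 638.8 in neutrophils. Its G-MDSC arrays were both higher. The log2 difference was 1.24 ± 0.34 (SE, n = 2 per group), 2.35-fold, with a 95% interval from 0.46 to 2.01, and it missed the threshold over all probe sets (limma adjusted p = 0.0607). It passed with 1 probe set per gene (limma adjusted p = 0.0252), without neutrophils replicate 1 (0.999) and without neutrophils replicate 2 (1.47). The threshold was missed without G-MDSC replicate 1 (1.24), without G-MDSC replicate 2 (1.23) and with quantile normalization (1.12, limma adjusted p = 0.127).

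Casp9, the initiator of the apoptosome, was read by 3 probe sets that did not agree. On the brightest, 1437537_at, signals were 776.1 and 773.6 for G-MDSC and 367.6 and 207.5 for neutrophils, so that the groups were separate and the neutrophil arrays were the more spread. The log2 difference was 1.43 ± 0.40 (SE, n = 2 per group) and missed the threshold (limma adjusted p = 0.0614). It was 1.04 without neutrophils replicate 2 (adjusted p = 0.101) and 1.82 without neutrophils replicate 1 (0.0064), and it passed with 1 probe set per gene (0.0231). On 1426125_a_at, a probe set of the type that matches several transcripts of its gene, signals were 110.8 and 131.5 for G-MDSC and 97 and 231.9 for neutrophils, and the groups overlapped. Its difference was -0.29 ± 0.57 (limma adjusted p = 0.788), or 0.27 without neutrophils replicate 2. Within an array, the brightest probe set exceeded this one by 2.64 and 2.42 for G-MDSC and by 1.76 and -0.15 for neutrophils on the log2 scale. This ratio was lowest in neutrophils replicate 2, and the part of that array in the disagreement was not tested. The third, 1457816_at, was at 15.3 and 24.8 for G-MDSC and 14.1 and 30.9 for neutrophils, below the 40th percentile of every array. The median of the tested probe sets gave 0.57 for the gene (adjusted p = 0.342, among genes).

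Apaf1, the scaffold on which Casp9 is activated, did not pass the test on either probe set. On 1452870_at the signal was 2462 and 1943 for G-MDSC and 2233 and 1173 for neutrophils, and 3 of the 4 arrays lay close together with neutrophils replicate 2 below them. The log2 difference was 0.43 ± 0.38 (SE, n = 2 per group), with a 95% interval from -0.43 to 1.29 (limma adjusted p = 0.534), and -0.030 without neutrophils replicate 2. On 1450223_at signals of 254.7 and 167.5 in G-MDSC overlapped with 273.8 and 233.8 in neutrophils, and the difference was -0.27 ± 0.44 (adjusted p = 0.742), or -0.38 without neutrophils replicate 2. The sign of 1452870_at turned only without neutrophils replicate 2, and that of 1450223_at with quantile normalization (0.12) and without G-MDSC replicate 2 (0.0091). The intervals leave room for a change of more than 2-fold upward on the brighter probe set and downward on the dimmer one.

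The inflammatory caspases did not pass the test. Casp1, the protease of canonical inflammasomes, had signals of 1594 and 2196 for G-MDSC and 1506 and 1185 for neutrophils. The groups did not overlap, but the nearest arrays were almost equal. The log2 difference was 0.48 ± 0.33 (SE, n = 2 per group), with a 95% interval from -0.27 to 1.23 (limma adjusted p = 0.426), and 0.31 without neutrophils replicate 2. Casp4, the mouse protease that senses intracellular lipopolysaccharide, had signals of 4188 and 6440 for G-MDSC and 6381 and 5222 for neutrophils. The highest and the lowest of its 4 arrays were both G-MDSC. Its difference was -0.15 ± 0.33, with a 95% interval from -0.90 to 0.59 (adjusted p = 0.811), and -0.30 without neutrophils replicate 2. Median scaling (0.087) and leaving out G-MDSC replicate 1 (0.16) turned its sign.

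**Figure D2:**
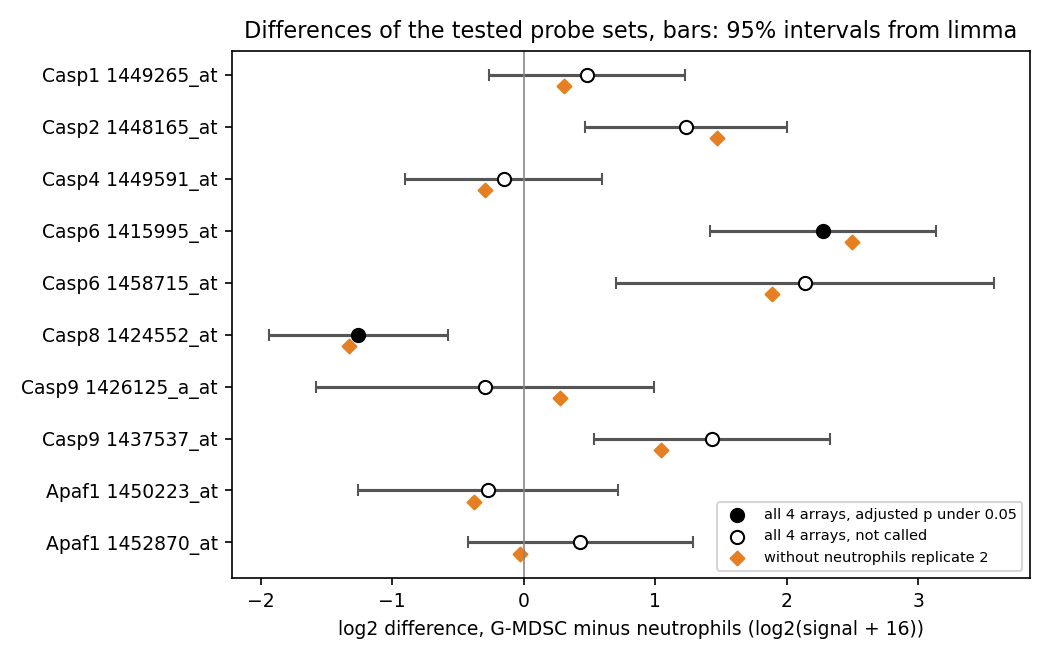
Log2 difference (G-MDSC minus neutrophils) of the 10 tested probe sets with 95% intervals from limma, filled where the adjusted p was under 0.05, and orange diamonds for the fit without neutrophils replicate 2. The intervals of Casp6 (1415995_at, from 1.42 to 3.14) and Casp8 (from -1.94 to -0.57) stand on opposite sides of 0, and the diamond of Apaf1 1452870_at lies at -0.030.

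Across the 7 genes, each by its brightest probe set, the median difference was 0.48, against -0.18 over all 13139 genes, and the arrays of the groups did not overlap for 5 of the 7, where 59.5% of all genes had no overlap. The order of the differences ran from Casp8 through Casp4, Apaf1, Casp1, Casp2 and Casp9 to Casp6. Of the neighbours in that order, Apaf1 and Casp1, and Casp2 and Casp9, lay closer together than the standard error of either. The genes whose pattern over the 4 arrays was nearest to that of Casp6 were Cirbp, a cold-inducible RNA-binding protein, H1f2, a linker histone, and Slc32a1, a vesicular transporter of inhibitory transmitters. Their Euclidean distances to Casp6 over 4 arrays, on log2 values centred on each gene's mean, were 0.22, 0.27 and 0.29, the smallest of 13138 genes. Cirbp differed by 2.10 ± 0.34 (limma adjusted p = 0.00895) and H1f2 by 2.29 ± 0.37 (0.00872). Both were picked for their closeness to Casp6, so differences like its own were fixed by that choice and lend it no support. Slc32a1 had signals of 34.9 and 65.3 for neutrophils, below the 40th percentile of both arrays, so that its distance has no exact meaning. G-MDSC, at 214.3 and 306, exceeded those percentiles by at least 2.72-fold, or at least 1.83-fold with the common floor. Slc32a1 was tested only through the group where it is high, so no fitted value of it is given.

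The genes that restrain or feed the members were read from 4 lists, each gene by its brightest tested probe set, where 10.7% of all genes were called, 5.17% as higher and 5.55% as lower. Of 14 tested inhibitors, regulators and further caspases, 1 was lower and 0 higher (limma; 2 higher and 1 lower at an unadjusted p under 0.05), with a median of -0.06. The exception was Cflar, the catalytically inactive relative of Casp8 that holds it in check at death receptors. Its signal was 1369 and 1011 for G-MDSC and 6368 and 3474 for neutrophils. Cflar was thus 3.96-fold lower in G-MDSC, by a log2 difference of -1.98 ± 0.37 (limma adjusted p = 0.0157), and -2.42 without neutrophils replicate 2, but its call was lost with median scaling (-1.75, adjusted p = 0.0768). The count of this list was 2 with G-MDSC replicate 2 left out and 5 with neutrophils replicate 1 left out. Both Casp8 and its regulator were lower in the same G-MDSC arrays. The inhibitor of apoptosis Xiap, with signals of 4437 and 3376 against 4650 and 2780, differed by 0.11 ± 0.35 (adjusted p = 0.88), and Birc3, 8500 and 10368 against 17687 and 10870, by -0.56 ± 0.34 (0.369). The 2 genes of the list that were higher at an unadjusted p under 0.05 were not called. They were Birc5, at 1.65 ± 0.54 (limma adjusted p = 0.104), and Arel1, at 1.17 ± 0.35 (0.0807).

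Of 17 tested apoptosome, nuclease and substrate genes, 1 was higher and 2 were lower, with a median of -0.14, and 5 were called without neutrophils replicate 1. Cycs, the cytochrome c that binds Apaf1, had signals of 3950 and 5370 for G-MDSC and 9800 and 16494 for neutrophils. It was 2.75-fold lower, by -1.46 ± 0.35 (limma adjusted p = 0.0394), a call lost without neutrophils replicate 2 (-1.09, adjusted p = 0.0596), without G-MDSC replicate 1 (-1.24, 0.255) and without G-MDSC replicate 2 (-1.68, 0.0502). The call of Cycs was also lost with median scaling (0.119), with quantile normalization (0.0501) and with no filter (0.0657). Lmna, lamin A/C and the classical substrate of Casp6, was at 89.7 and 93.4 for G-MDSC and 585 and 1025 for neutrophils. It was 7.36-fold lower in G-MDSC, by -2.88 ± 0.43 (adjusted p = 0.00659; -2.48 without neutrophils replicate 2). Gsn, the actin-severing protein gelsolin that caspases also cut, was at 21505 and 17811 for G-MDSC and 7248 and 4172 for neutrophils, higher by 1.83 ± 0.35 (adjusted p = 0.0168). The difference of Gsn was 1.43 without neutrophils replicate 2 (adjusted p = 0.0124).

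Of 14 tested death receptor adaptor and necroptosis genes, 2 were higher and 1 lower, with a median of 0.046. The count was 1 without G-MDSC replicate 1 or neutrophils replicate 2, 0 with G-MDSC replicate 2 left out and 5 with neutrophils replicate 1 left out (limma, with 4 in the fit of all arrays at an unadjusted p under 0.05). Bid, which Casp8 cuts to carry the signal to mitochondria, was at 1719 and 2954 for G-MDSC and 728 and 758.4 for neutrophils, 2.99-fold higher (log2 difference 1.58 ± 0.36, limma adjusted p = 0.0311), a call lost without G-MDSC replicate 2 (1.19, 0.335). Casp8ap2, a Casp8-associated protein that also acts in histone gene expression, was at 2454 and 2047 against 993.7 and 602.6, higher by 1.51 ± 0.35 (adjusted p = 0.0349). Its call was lost without neutrophils replicate 2 (1.16, 0.0569) and without G-MDSC replicate 1 (1.38, 0.19) or 2 (1.64, 0.078). Ripk3, the kinase of necroptosis that Casp8 restrains, was at 342.6 and 324.1 for G-MDSC and 847.4 and 867.8 for neutrophils, where replicates were close and the groups were separate. It was lower, at -1.32 ± 0.34 (adjusted p = 0.0496), a call lost without neutrophils replicate 2 (-1.31, 0.0514) and without G-MDSC replicate 1 (-1.36, 0.287) or 2 (-1.28, 0.326). All 3 calls were lost with median scaling (adjusted p of 0.0545 for Bid, 0.0659 for Casp8ap2 and 0.144 for Ripk3) and with quantile normalization (0.0862, 0.0726 and 0.0781), and that of Ripk3 also with no filter (0.0572) and with a pseudocount of 64 (0.0522).

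Of 16 tested inflammasome and pyroptosis genes, 2 were higher and 6 lower, with a median of -0.81. The count of calls was 4 when G-MDSC replicate 1 was left out and 12 when neutrophils replicate 1 was. With median scaling 2 were higher and 2 lower. Nlrp3, the sensor that activates Casp1 through Pycard, was at 6701 and 7013 for G-MDSC and 21653 and 28901 for neutrophils, 3.64-fold lower (log2 difference -1.87 ± 0.31, limma adjusted p = 0.00926; -1.66 without neutrophils replicate 2). Mefv, which encodes pyrin, another sensor, was lower, at -1.39 ± 0.33 (adjusted p = 0.0366), a call lost without G-MDSC replicate 1 (-1.12, 0.331). Il18, a substrate of Casp1, was lower, at -1.48 ± 0.37 (adjusted p = 0.0435), a call lost without neutrophils replicate 2 (-1.11, 0.0848) and without G-MDSC replicate 1 (-1.56, 0.121) or 2 (-1.40, 0.191). Il1a, an alarmin cytokine, was at 50.1 and 249.9 for G-MDSC and 5163 and 21981.5 for neutrophils, so that replicates lay far apart in both groups. The first G-MDSC signal was close to the 40th percentile of its array, 45.7. Il1a was lower, at -6.33 ± 0.75 (limma adjusted p = 0.00231). The difference was -5.29 without neutrophils replicate 2 and -7.37 without replicate 1, and -5.33 and -7.33 without G-MDSC replicates 1 and 2. Ninj1, which ruptures the membrane after gasdermin pores form, was lower, at -1.38 ± 0.32 (adjusted p = 0.0352), a call lost without G-MDSC replicate 1 (-1.09, 0.455) or 2 (-1.67, 0.0732). Pycard, the adaptor between sensors and Casp1, was at 4243 and 4612 for G-MDSC and 8722 and 11873 for neutrophils, lower, at -1.20 ± 0.31 (adjusted p = 0.0476), a call lost without neutrophils replicate 2 (-0.98, 0.0682) and without G-MDSC replicate 1 (-1.14, 0.321) or 2 (-1.26, 0.226). With median scaling the calls of Mefv (0.174), Il18 (0.106), Ninj1 (0.145) and Pycard (0.177) were lost, with quantile normalization those of Il18 (0.086) and Pycard (0.0508), and with no filter those of Mefv (0.0534), Ninj1 (0.0946) and Pycard (0.0787). Ninj1 and Pycard lay outside the rule for named genes and were added after their values were seen.

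Gsdme and Nlrp12 were the higher genes of that list. Gsdme, the gasdermin that executioner caspases cut, was at 3128 and 3309 for G-MDSC and 352 and 227.8 for neutrophils, 10.8-fold higher (log2 difference 3.43 ± 0.35, limma adjusted p = 0.00109; 3.14 without neutrophils replicate 2). Nlrp12, a related receptor of myeloid cells, was at 2921 and 3267 against 685.1 and 297, higher by 2.73 ± 0.42 (adjusted p = 0.0069; 2.15 without neutrophils replicate 2). Gsdmd, the gasdermin cut by Casp1 and Casp4, was at 2783 and 3329 against 2922 and 1588 and did not pass the test (0.50 ± 0.36, adjusted p = 0.456). Il1b, at 26516 and 35685 against 34836 and 56214, did not pass either (-0.52 ± 0.36, adjusted p = 0.427). Xiap, Birc3, Birc5, Arel1, Gsdmd and Il1b also lay outside the rule for named genes and were chosen after their values were seen. Macrophage and monocyte markers were lower in the same G-MDSC arrays, as given above, and their part in the lower inflammasome genes was not tested.

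**Figure D3:**
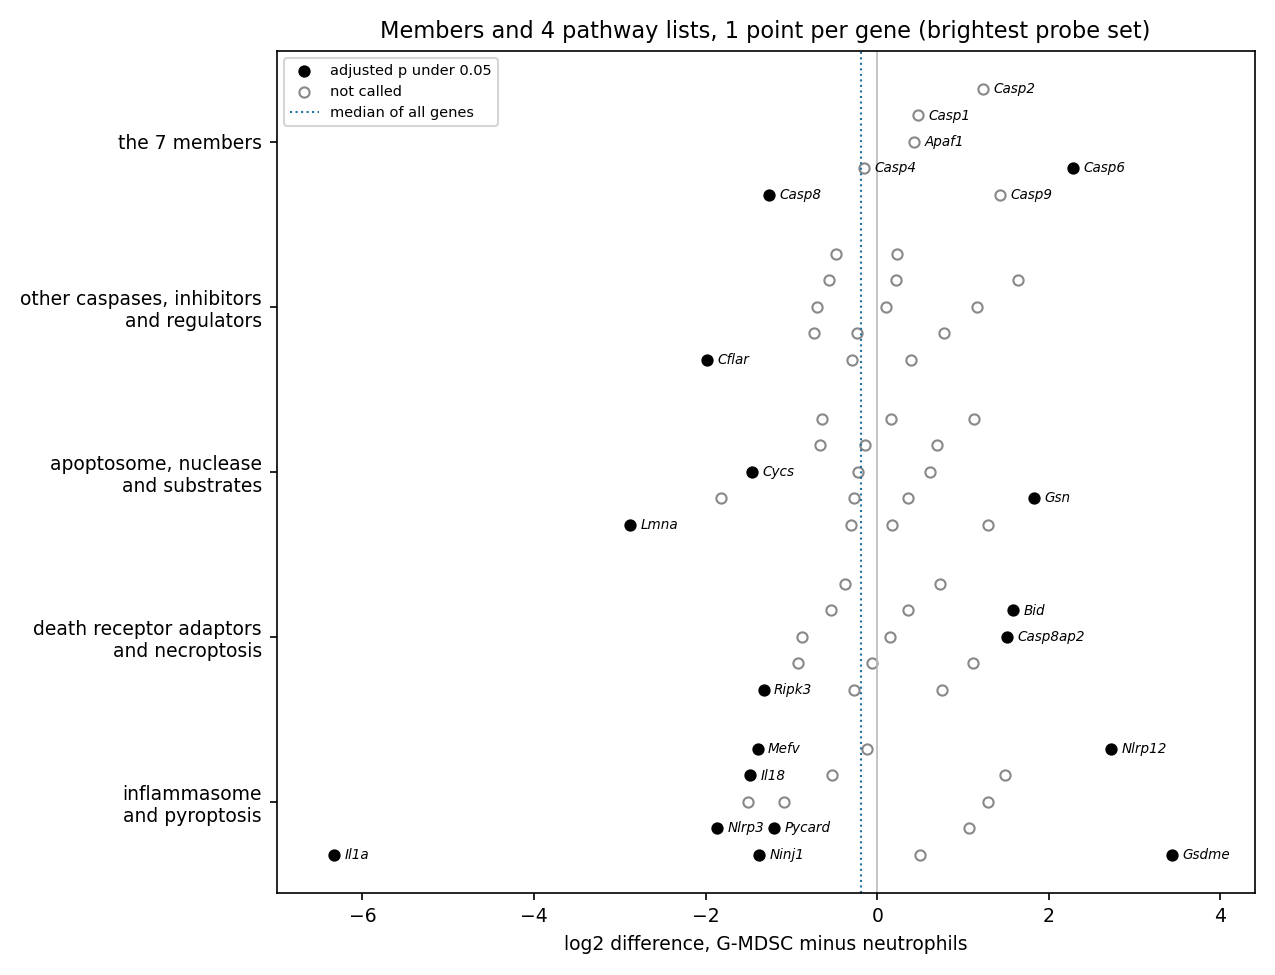
Log2 difference (G-MDSC minus neutrophils) of the 7 members and of the tested genes of 4 pathway lists, 1 point per gene by its brightest probe set, filled and named where the adjusted p was under 0.05 (members are all named), with a dotted line at the median of all genes, -0.18. Gsdme (3.43) and Casp6 (2.28) lie to the right, and Cflar (-1.98), Casp8 (-1.26) and the 6 lower inflammasome genes to the left.

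The members differed in how much they moved with the processing. The brightest probe set of Casp6 kept its sign in 15 of 15 alternatives and its call in 12, with differences from 1.94 to 2.62. Casp8 kept its sign in 15 and its call in 10. Casp2 kept its sign in 15 and passed in 5, and 1437537_at of Casp9 kept its sign in 15 and passed in 4. Casp1 kept its sign in 15 and passed in 0 (limma), with adjusted p from 0.158 to 0.934.

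**Figure D4:**
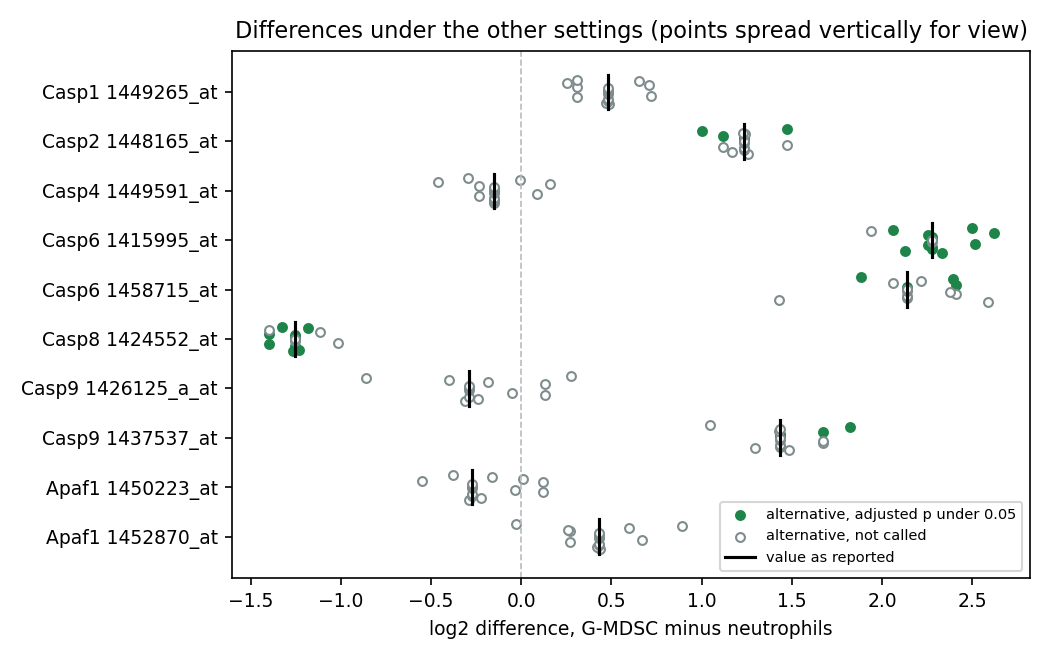
Log2 difference of each tested probe set under up to 15 other settings (points, green where the adjusted p was under 0.05) and as reported (black bar). The points of Casp6, Casp2 and Casp8 stay on one side of 0, and those of Casp4, of Apaf1 and of Casp9 1426125_a_at cross it.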

How the data were processed

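Arrays of 2 G-MDSC and 2 neutrophil samples were used. The authors' deposited intensity values are linear signals, and the submitters' processing notes name GCOS 1.4 and MAS5. The mean without 2% of probe sets at each end was 500 in each array, so the arrays were already scaled. Of 45101 probe sets 64 are controls. Symbols came from the platform annotation, in which 34945 probe sets have 1 symbol, 932 several and 9160 none, and 34741 matched RefSeq by gene ID with 0 updated. Signals were used as log2(signal + 16), filtered at the 40th percentile in at least 2 arrays, and fitted with limma 3.58.1 in R 4.3.3 with an intensity trend. Python 3.11.15, pandas 2.3.3, numpy 2.4.6 and matplotlib 3.10.9 were also used. Where both arrays of a group lay at or below their 40th percentile, the fold is a bound against it. With 2 against 2 arrays a permutation p cannot go below 0.333, so none was used. Array number limits precision. The fit was tested on simulated data. The members and lists were chosen with earlier results of these data known. Named genes were all member probe sets, up to 4 called genes per direction of each pathway list or the 2 brightest where none was called, the largest difference of each marker list, and the 3 nearest patterns. Of the marker lists, Sdc1, Lyz2 and Csf1r were named in addition, after their values were seen. Alternatives were pseudocounts of 1 and 64, no filter or the 60th percentile, quantile and median scaling, other variance models, 1 probe set per gene or their median, the replicate block and leaving out each array.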

Additional observations from a re-analysis of the deposited data

How the results depend on the processing

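The number of member probe sets called was 2 as reported and ran from 0 to 5 when 1 array was left out. It was 1 with median scaling, 0 without the intensity trend or without moderation, 4 with 1 probe set per gene, 5 with the replicate block and 5 with quantile normalization and the block together. The shares called over all probe sets were 8.03% as reported, 5.4% with median scaling, 19.3% with the block and 19.7% with quantile normalization and the block. With 1 probe set per gene, 16.4% of all genes were called. The 15 calls among pathway genes became 9 with quantile normalization, 6 with median scaling, 1 without the intensity trend, 0 without moderation, 23 with the block and 24 with quantile normalization and the block, and ran from 8 to 27 when 1 array was left out. Over all probe sets 2309 were called as reported, 1405 with quantile normalization, 226 without the intensity trend, 0 without moderation (limma, 4212 at an unadjusted p under 0.05), 5552 with the block, 5651 with quantile normalization and the block, and from 1273 to 7893 with 1 array left out. Casp4 turned to 0.087 with median scaling and ran from -0.46 to 0.16 with 1 array left out. Casp9 1426125_a_at turned to 0.13 with quantile normalization, with or without the block, and ran from -0.86 to 0.27 with 1 array left out. Apaf1 1450223_at turned to 0.12 with quantile normalization, with or without the block, and ran from -0.55 to 0.0091, and Apaf1 1452870_at ran from -0.030 to 0.89. The cause was not tested. The 15 called pathway genes kept their sign under each alternative run. The labels give both groups the same replicate numbers without saying that a number pairs arrays, and deviations of same-numbered arrays from their group means correlated at 0.30. With the replicate block the adjusted p (limma) was 0.00489 for Casp2 and 0.00338 for Casp9 1437537_at, and 1 of the 5 calls was Casp6 1458715_at, tested only through the group where it is high. Without the intensity trend the call of Gsdme was the 1 kept among pathway genes. Leaving out 1 array leaves a single array in its group, whose spread is assumed to be that of the other group. Values below the 40th percentile, as for Casp9 1457816_at, have no order.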
